A study of Mus musculus with 4 samples.

Results

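The 10 genes described here, Ttr, Enpp2, Folr1, Kl, Prlr, Aqp1, Slc4a5, Clic6, Otx2 and Sostdc1, mark the epithelium of the choroid plexus. They were taken by gene symbol, and all 10 were found among the 19230 genes of the table. RNA was sequenced from the hippocampus of C57BL/6 mice aged 12 months. The LA group (replicates 1 and 2) was given licochalcone A (LA), a flavonoid of licorice root, for 30 days, and the Ctrl group (replicates 2 and 3) was not. The sources used here state no dose of LA and no treatment of the Ctrl mice. They also do not say whether each library was made from a different mouse, so a p-value here covers library-to-library spread, and that spread may be technical. In these genes Ctrl replicate 3 stood apart from the other 3 libraries, so for them its value is given on its own.

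The choroid plexus is a tuft of epithelium, fibroblasts and leaky capillaries that hangs in the brain ventricles, and in the lateral ventricle it runs along the edge of the hippocampus. Its epithelium secretes cerebrospinal fluid by moving sodium, chloride, bicarbonate and water. It also passes folate and thyroid hormone into the fluid and secretes carrier proteins and enzymes.

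The upstream sequences of some of the genes are shown because all 10 genes were highest in the same library, Ctrl replicate 3. Shared control of the genes was not tested. The promoter table of NCBI RefSeq (build GRCm38.p6) held starts of 5 of the 10 genes, Kl, Aqp1, Otx2, Prlr and Slc4a5, with 10 starts in all. The 250 bases before each start were searched on both strands for TAATCC, the core site of the OTX family to which Otx2 itself belongs, for the TATA box TATAAA and for the GC box GGGCGG. Kl (chr5:150952357-150952606, plus strand) had 66.8% GC, above the median of 52.4% over 32851 promoters, and Aqp1 (chr6:55336049-55336298, plus strand) had 62%. The first start of Otx2 (chr14:48667645-48667894, minus strand) had 42%. Each stretch ends at the base before the start, and capitals mark the motifs.
Kl: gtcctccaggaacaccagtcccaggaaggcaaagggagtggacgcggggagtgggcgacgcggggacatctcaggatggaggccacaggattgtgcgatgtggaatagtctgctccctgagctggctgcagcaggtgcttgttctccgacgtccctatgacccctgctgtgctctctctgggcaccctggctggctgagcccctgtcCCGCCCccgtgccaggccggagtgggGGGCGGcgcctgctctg
Aqp1: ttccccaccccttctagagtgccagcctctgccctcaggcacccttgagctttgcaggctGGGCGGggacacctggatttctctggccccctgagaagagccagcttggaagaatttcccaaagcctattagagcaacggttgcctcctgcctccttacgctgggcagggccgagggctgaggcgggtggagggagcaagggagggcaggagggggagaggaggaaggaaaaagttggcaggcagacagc
Otx2: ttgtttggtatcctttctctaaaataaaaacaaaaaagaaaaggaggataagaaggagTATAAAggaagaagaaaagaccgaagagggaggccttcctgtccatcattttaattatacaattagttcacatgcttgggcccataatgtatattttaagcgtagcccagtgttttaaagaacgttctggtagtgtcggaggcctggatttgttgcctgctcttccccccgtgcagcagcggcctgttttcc

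The GC boxes of Kl, of which the first is on the minus strand, began 43 and 17 bases before its start, the GC box of Aqp1 began 190 bases and the TATA box of Otx2 192 bases before theirs. The GC box was found before 3 of the 10 starts (Kl, Aqp1 and Slc4a5), against 32.7% of all promoters, and the TATA box before 2 (Otx2 and Slc4a5), against 12.4%. TAATCC was found before 1 of the 10 starts, against 6.25% of all promoters. That start is another one of Otx2, in a stretch that overlaps an exon of the gene, and its 30 bases around the site (chr14:48665303-48665332, minus strand, with the site beginning 211 bases before that start) are shown because the motif is that of the gene's own family.
Otx2, another start: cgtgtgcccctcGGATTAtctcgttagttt
A match of 6 letters is a description of the sequence and no evidence of binding.

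All 10 genes were highest in Ctrl replicate 3, and by a wide margin. Summed over the 10 genes, expression was 135 and 166 FPKM in the LA libraries (replicates 1 and 2), 72.7 FPKM in Ctrl replicate 2 and 8930.1 FPKM in Ctrl replicate 3. FPKM are fragments scaled to transcript length and to the mapped fragments of each library, so levels can be compared between genes. The same sums made up 0.0348% and 0.0376% of all FPKM in the LA libraries, 0.0188% in Ctrl replicate 2 and 2.26% in Ctrl replicate 3. The LA libraries thus lay between the 2 Ctrl libraries. In such bulk tissue, fewer epithelial cells and less RNA per cell cannot be told apart.

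**Figure D1:**
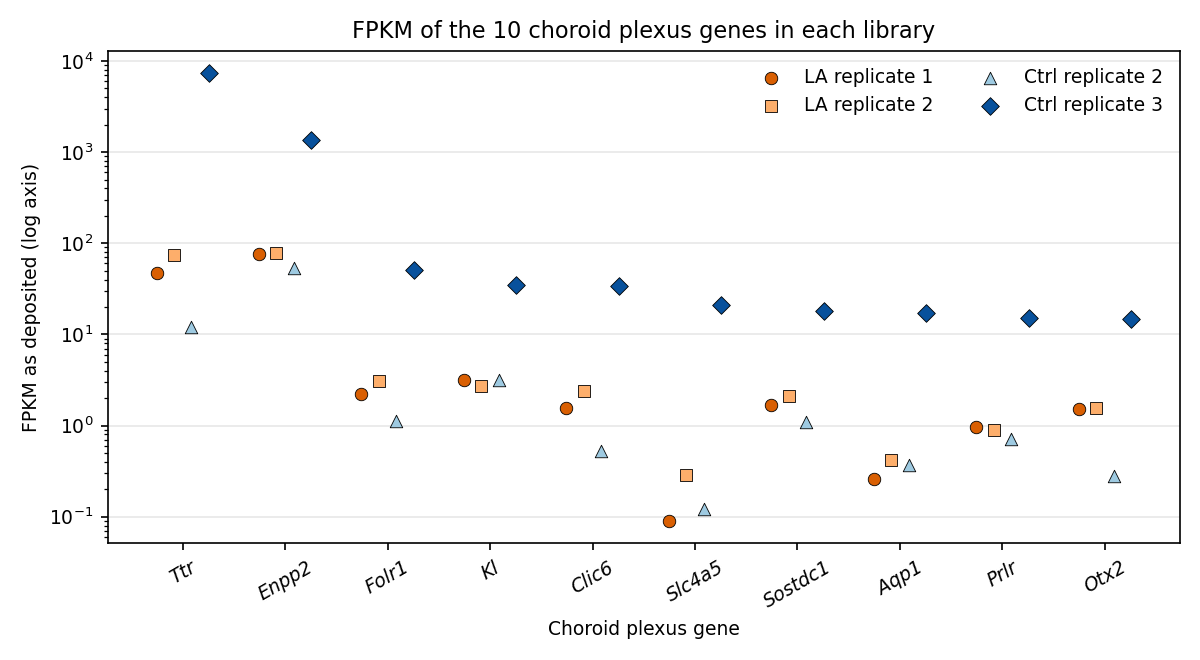
FPKM of each of the 10 choroid plexus genes (horizontal axis) in each library on a log axis; orange points are LA replicates 1 and 2, blue points are Ctrl replicates 2 and 3. In every gene Ctrl replicate 3 lies at 14.7 FPKM or more and above the other 3 libraries, by 8.53-fold for Sostdc1 to 97.8-fold for Ttr.

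The comparison of LA with the Ctrl asks which hippocampal genes change after LA in mice of this age. With all 4 libraries, 0 of the 10 genes passed the threshold (limma on log2(FPKM + 1), Benjamini-Hochberg adjusted p under 0.05 over 13518 genes), and the unadjusted p of all 10 was above 0.05. Limma called 0 of them with robust estimation or without its trend as well. Among the 13518 genes, 19 were called lower in LA (0.141%) and 0 were called higher (0%). The 10 log2 fold changes were all negative, with a median of -1.59 against -0.012 over all genes. Without Ctrl replicate 3 they ran between -0.093 (Kl) and 2.20 (Ttr). An exact permutation test of a single gene could not give a p under 0.333 here. Of the 10 genes, 3 (Aqp1, Prlr and Slc4a5) passed the filter of a mean of at least 1 FPKM only through Ctrl replicate 3.

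Ttr encodes transthyretin, which the choroid plexus secretes as the carrier of thyroxine and of retinol-binding protein. It had 47.2 and 75.2 FPKM in LA, 12.2 FPKM in Ctrl replicate 2 and 7359.9 FPKM in Ctrl replicate 3. Ttr was the most abundant gene of all in Ctrl replicate 3, while it ranked 1639 and 1063 in the LA libraries and 6253 in Ctrl replicate 2. The group values were 61.2 ± 19.9 FPKM in LA and 3686 ± 5196 FPKM in Ctrl (SD, n = 2 each), and limma gave -2.36 for the log2 fold change (standard error 2.39, adjusted p = 0.851). Both LA libraries stood above Ctrl replicate 2, and they differed from each other by 1.6-fold.

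Enpp2 encodes autotaxin, a secreted enzyme that makes lysophosphatidic acid. It is also known from oligodendrocytes. It was the highest of the 10 genes in 3 libraries, with 76.7 and 77.6 FPKM in LA and 53.2 FPKM in Ctrl replicate 2, and reached 1364 FPKM in Ctrl replicate 3. Its LA libraries were nearly equal. Enpp2 stood at 163% and 103% of the FPKM of Ttr in LA, at 437% in Ctrl replicate 2 and at 18.5% in Ctrl replicate 3. The log2 fold change was -1.80 ± 1.22 (standard error, adjusted p = 0.768, limma). Enpp2 (15:54838901-54952789, build GRCm38.p6) overlaps Gm26684 on the other strand, which was not analysed here.

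The transporters and channels of fluid secretion were low outside Ctrl replicate 3. Slc4a5, the electrogenic sodium bicarbonate cotransporter of the apical membrane (6:83207580-83304945), had 0.09 and 0.29 FPKM in LA, 0.12 FPKM in Ctrl replicate 2 and 21.1 FPKM in Ctrl replicate 3. Aqp1, the water channel of the same membrane (6:55336299-55348555), had 0.26 and 0.42 FPKM in LA, 0.37 FPKM in Ctrl replicate 2 and 17.3 FPKM in Ctrl replicate 3. For both genes the value of Ctrl replicate 2 lay between those of the LA libraries. Clic6, of the family of chloride intracellular channels (16:92498147-92541241), had 1.56 and 2.39 FPKM in LA, 0.53 FPKM in Ctrl replicate 2 and 34.0 FPKM in Ctrl replicate 3. For Clic6 both LA libraries were above Ctrl replicate 2. Their log2 fold changes were -2.07 ± 1.14 for Slc4a5, -1.90 ± 1.00 for Aqp1 and -1.31 ± 1.20 for Clic6 (standard errors, adjusted p of 0.723, 0.713 and 0.836, limma). Clic6 overlaps 2410124H12Rik on the same strand, which had 0.38 and 0.19 FPKM in LA and 0.27 and 0.09 FPKM in Ctrl.

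Folr1 encodes folate receptor alpha, through which the epithelium carries folate into the fluid. Folr1 (7:101858331-101870788) had 2.21 and 3.09 FPKM in LA, 1.13 FPKM in Ctrl replicate 2 and 50.8 FPKM in Ctrl replicate 3. LA was above Ctrl replicate 2 and far below Ctrl replicate 3, and the log2 fold change was -1.54 ± 1.22 (standard error, adjusted p = 0.808, limma). It overlaps Anapc15, a subunit gene of the anaphase-promoting complex, on the other strand. Whether reads were counted by strand is not given in the sources used here, so reads of the shared stretch cannot be assigned. Anapc15 had 9.71 and 16.6 FPKM in LA and 11.0 and 10.3 FPKM in Ctrl, and so did not share the height of Folr1 in Ctrl replicate 3.

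Kl and Prlr serve the response to circulating hormones. Kl encodes klotho, the coreceptor for FGF23, which is also shed into the fluid (5:150952607-150993817). Kl had 3.15 and 2.70 FPKM in LA, 3.18 FPKM in Ctrl replicate 2 and 34.9 FPKM in Ctrl replicate 3, and was the only 1 of the 10 genes whose LA and Ctrl libraries did not overlap. Over all genes tested, 21% had both LA libraries below both Ctrl libraries. The gap between LA replicate 1 and Ctrl replicate 2 was small beside the spread of 2.93 ± 0.318 FPKM in LA (SD, n = 2), and its log2 fold change, -1.64 ± 0.83, did not pass (standard error, adjusted p = 0.695, limma). Prlr, the prolactin receptor (15:10177238-10349190), had 0.96 and 0.89 FPKM in LA, 0.72 FPKM in Ctrl replicate 2 and 15.2 FPKM in Ctrl replicate 3. Its LA libraries were slightly above Ctrl replicate 2, and limma gave -1.45 ± 0.86 (standard error, adjusted p = 0.732). Prlr overlaps Gm21973 on the same strand, which was not analysed here.

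Otx2 is a homeodomain transcription factor needed to form and maintain the choroid plexus, and Sostdc1 is a secreted antagonist of BMP and Wnt signals. Otx2 (14:48656781-48667644) had 1.51 and 1.55 FPKM in LA, 0.28 FPKM in Ctrl replicate 2 and 14.7 FPKM in Ctrl replicate 3. Sostdc1 (12:36314169-36318452) had 1.67 and 2.12 FPKM in LA, 1.08 FPKM in Ctrl replicate 2 and 18.1 FPKM in Ctrl replicate 3. In both genes the 2 LA libraries were close together and above Ctrl replicate 2. The log2 fold changes were -0.82 ± 0.96 for Otx2 and -1.13 ± 0.86 for Sostdc1 (standard errors, adjusted p of 0.875 and 0.798, limma). Otx2 overlaps Otx2os1 on the other strand and Gm49154 on the same strand, and neither was analysed here.

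The LA libraries differed little from each other over the 10 genes, by a median ratio of LA replicate 2 to LA replicate 1 of 1.33 (0.857 to 3.22). The ratio of Ctrl replicate 3 to Ctrl replicate 2 had a median of 45.9 and ran between 11.0 for Kl and 605 for Ttr. On the log2(FPKM + 1) scale the median difference between Ctrl replicates 3 and 2 was 4.02 over the 10 genes and -0.017 over all genes tested, and that between LA replicates 2 and 1 was 0.20 and -0.072. The mean of LA was 0.919-fold to 5.46-fold that of Ctrl replicate 2, so in each gene the 2 Ctrl libraries were further apart than LA was from Ctrl replicate 2.

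**Figure D2:**
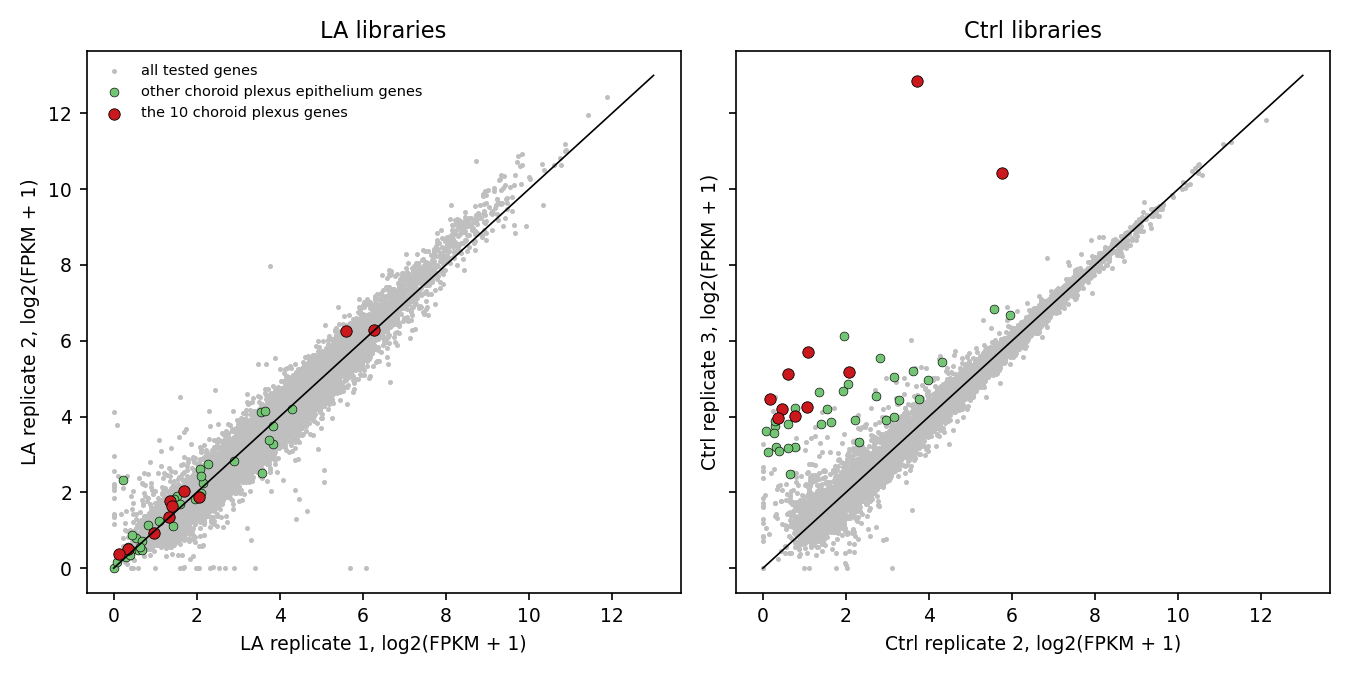
log2(FPKM + 1) of every tested gene (grey) in LA replicate 2 against LA replicate 1 (left) and in Ctrl replicate 3 against Ctrl replicate 2 (right), with the line of equality; the 10 choroid plexus genes are red and the list of other choroid plexus epithelium genes is green. The red points lie near the line in LA (median difference 0.20) and far above it in Ctrl (median difference 4.02).

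The 10 genes kept much the same order in the 3 low libraries. Spearman's rho over the 10 genes was 0.976 between the LA libraries, 0.939 and 0.903 between each of them and Ctrl replicate 2, and 0.770 to 0.818 between Ctrl replicate 3 and the others. These values describe 10 genes that share the same transcript lengths in each library. Enpp2 and Ttr led in every library, and Slc4a5 was the lowest of the 10 in all but Ctrl replicate 3, where it was sixth. Without Ttr and Enpp2, the remaining 8 genes summed to 11.4 and 13.5 FPKM in LA, 7.41 FPKM in Ctrl replicate 2 and 206 FPKM in Ctrl replicate 3. Relative to Ttr, the 10 genes had a median of 3.43% and 3.00% in LA, 7.40% in Ctrl replicate 2 and 0.374% in Ctrl replicate 3, so Ttr stood out more among them where all were high.

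Which Ctrl library was kept set the direction of the difference. Without Ctrl replicate 2, all 10 log2 fold changes were negative, from -6.925 for Ttr to -2.633 for Otx2, with a median of -3.67 (limma). This fit set LA against the 1 library in which the 10 genes were high. Without Ctrl replicate 3 the median was 0.50, 8 of the 10 log2 fold changes were positive, and 1 gene, Ttr, was called higher in LA, against 0.118% of all genes tested called higher and 0.459% called lower. In these fits the single Ctrl library was assumed to vary as the LA pair did. Without LA replicate 1 or LA replicate 2, 0 of the 10 genes were called, and the medians were -1.60 and -1.64.

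**Figure D3:**
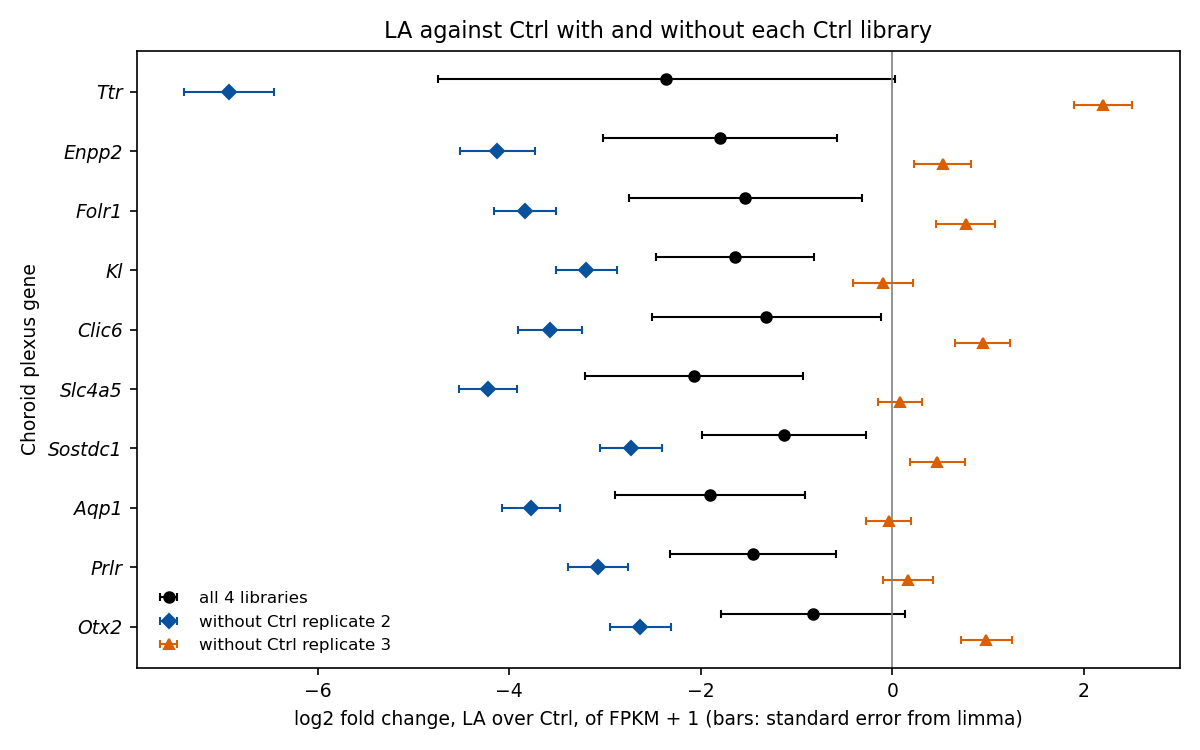
log2 fold change of LA over Ctrl on the log2(FPKM + 1) scale for each of the 10 genes, with standard errors from limma as bars, with all 4 libraries (black circles), without Ctrl replicate 2 (blue diamonds) and without Ctrl replicate 3 (orange triangles). All values are negative with all 4 libraries and without Ctrl replicate 2, and 8 of 10 are positive without Ctrl replicate 3.

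In Ctrl replicate 2, Otx2 was at 0.28 FPKM and Clic6 at 0.53 FPKM, so their ratios to it rest on low values of unknown counting error. Compared with Ctrl replicate 2 alone, the mean of the LA libraries was 5.46-fold for Otx2, 5.03-fold for Ttr, 3.73-fold for Clic6 and 2.35-fold for Folr1. These 4 genes were those with an unadjusted p under 0.05 in the fit without Ctrl replicate 3. For Ttr it gave 2.20 ± 0.31 on the log2 scale (standard error, adjusted p = 0.000577, limma). Over all 13 alternatives, the log2 fold change of Ttr ran between -6.925 and 2.20. Otx2 (0.98 ± 0.27, adjusted p = 0.178), Clic6 (0.95 ± 0.29, adjusted p = 0.358) and Folr1 (0.77 ± 0.31, adjusted p = 1) did not pass in limma. Kl and Aqp1 had slightly negative values of -0.093 and -0.035. Both LA libraries stood above Ctrl replicate 2 in 7 of the 10 genes, against 26.1% of all genes tested. Marker genes of ependymal cells, the ciliated lining of the ventricles, had summed levels of 96.1 and 111 FPKM in LA, 60.3 FPKM in Ctrl replicate 2 and 102 FPKM in Ctrl replicate 3. Without Ctrl replicate 3 limma called 0 of 17 of them, 6 had an unadjusted p under 0.05, against 422 of all 13518 genes, and the median was 0.52. Their part in the result was not tested.

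A wider list of choroid plexus epithelium genes was read in the same way. Of 36 such genes, 33 had a mean of at least 1 FPKM. Of these, 13 reached it only through Ctrl replicate 3, so the filter itself put that library above the mean of the other 3. All 13 were highest in Ctrl replicate 3, as were 88.5% of the 165 genes of the table that passed in this way. The other 20 were highest in it too, as were 22.8% of the 13353 genes of the table that the other 3 libraries alone put past the filter. Of the 20, 6 stood over 4-fold above the highest other library on the FPKM + 1 scale, against 0.142% of those 13353. With the 13 included, 18 of the list did so, and over all 13518 genes 44 (0.325%). These 44 were the 10 genes, of which 3 also owed the filter to Ctrl replicate 3, the 18 of the list and 16 others, while LA replicate 2 had 5 genes that stood out alike, none of them on either choroid plexus list, and LA replicate 1 and Ctrl replicate 2 had 0. The wider list summed to 131 and 137 FPKM in LA, 236 FPKM in Ctrl replicate 2 and 832 FPKM in Ctrl replicate 3.

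The 8 genes of the list with the largest step between Ctrl replicate 3 and the highest other library were 1500015O10Rik, Slc16a8, Kcne2, F5, Wfdc2, Steap1, Tmem72 and Rdh5. Kcne2, a potassium channel subunit of the apical membrane, had 0.35 and 0.84 FPKM in LA and 0.72 and 17.6 FPKM in Ctrl. Slc16a8, a lactate transporter, was listed at 0 in both LA libraries and had 0.05 and 11.3 FPKM in Ctrl. 1500015O10Rik had 1.87 and 2.77 FPKM in LA and 2.87 and 69.3 FPKM in Ctrl, and F5, the gene of coagulation factor V, had 0.33 and 0.40 FPKM in LA and 0.22 and 12.4 FPKM in Ctrl. In all of these the second Ctrl value is replicate 3. Of the 4, 1500015O10Rik alone passed the filter without that library. The other 4 genes had 7.35 to 23.9 FPKM in Ctrl replicate 3 and at most 2.54 FPKM in any other library. By the same measure, the 10 genes outside the first 10 that were most like them over the 4 libraries were these 8, Kcnj13 and Prr32, of which 9 were on the list.

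**Figure D4:**
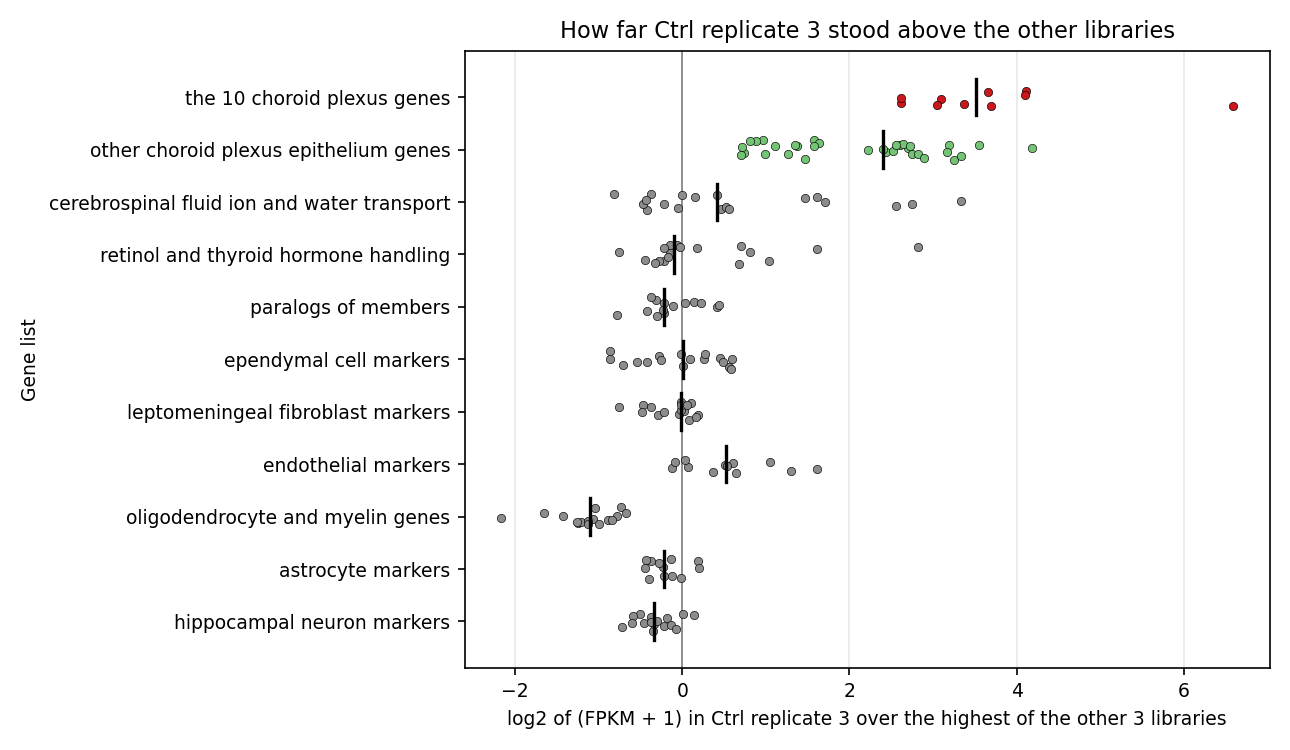
Each point is a tested gene of the list named at the left, placed by log2 of (FPKM + 1) in Ctrl replicate 3 over the highest of the other 3 libraries; black bars are medians. The 10 choroid plexus genes (median 3.52) and the other choroid plexus epithelium genes (median 2.40) lie right of 0, and the remaining lists have medians between -1.10 and 0.52.

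In part of the wider list both LA libraries lay below both Ctrl libraries. This held in 16 of the 33 genes, against 21% of all genes tested. All 33 were already highest in Ctrl replicate 3, against 23.6% of all genes tested, so the shares are not comparable. The margin of Ctrl replicate 2 over LA varied among the 16. It was small in 1500015O10Rik (1.87 and 2.77 FPKM in LA, 2.87 FPKM in Ctrl replicate 2) and large in Slc13a4 and Igf2. Of the 33, 2 were lower in LA at the threshold (limma), the sulfate transporter Slc13a4 and the growth factor Igf2, both named here after their values were seen, with a median log2 fold change of -1.44 over the list. Over all genes tested 0.141% were called lower. Slc13a4 had 2.05 and 2.25 FPKM in LA and 12.5 and 21.1 FPKM in Ctrl (log2 fold change -2.46 ± 0.25, standard error, adjusted p = 0.0209, limma), and Igf2 had 10.7 and 16.4 FPKM in LA and 60.4 and 101.5 FPKM in Ctrl (-2.48 ± 0.28, adjusted p = 0.0270). Without Ctrl replicate 3 both were among the 4 genes of the list called lower, and the median of the list was -0.13. With no filter on low values 0 genes of the whole table passed, and without LA replicate 2 there were 2. Both genes are also known from the leptomeninges, the membranes on the brain surface. Of 16 tested markers of leptomeningeal fibroblasts, all 16 had negative log2 fold changes (median -1.88). At the threshold 7 of them were called lower in LA (limma). Summed levels of the list were 763 and 1399 FPKM in LA and 4717 and 3869 FPKM in Ctrl. These markers were thus high in both Ctrl libraries, whereas the 10 choroid plexus genes were high in 1.

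The pathways around the 10 genes showed few calls. Of 19 measured genes of ion and water transport into the fluid, 0 passed in limma and 4 had an unadjusted p under 0.05, with a median of -0.34. Over all 13518 genes 1054 had such a p. Of the 19, 11 were highest in Ctrl replicate 3, against 23.6% of all genes tested. Over 4-fold up in it stood 3, namely Kcne2, Kcnj13 and the cation channel Trpv4, and all 3 are also on the wider list. Of 18 genes of retinol and thyroid hormone handling, the cargo of transthyretin, 15 had negative log2 fold changes (median -0.32). At the threshold 1 gene was called lower in LA, against 0.141% of all genes tested. That gene was Aldh1a2, which makes retinoic acid and is also on the leptomeningeal list (-2.13 ± 0.19, adjusted p = 0.0196, limma). Of 15 ligands, coreceptors and antagonists of BMP and Wnt signals, 14 had negative log2 fold changes (median -0.32) and 1 was called lower in LA. The gene called, Bmp7, had 1.92 and 2.28 FPKM in LA and 8.26 and 9.72 FPKM in Ctrl (-1.69 ± 0.19, adjusted p = 0.0276, limma).

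The partners of Folr1, Enpp2, Prlr and Kl gave no call. Of 16 genes of folate uptake and one-carbon metabolism 0 passed in limma and 1 had an unadjusted p under 0.05 (median 0.038). That gene, Slc19a1, the reduced folate carrier, had 5.63 and 4.79 FPKM in LA and 6.58 and 10.6 FPKM in Ctrl. Of 11 genes of lysophosphatidic acid signalling 0 passed and 2 had such a p (median -0.062), and the receptor Lpar1, with 11.1 and 12.1 FPKM in LA and 8.43 and 6.28 FPKM in Ctrl, had an adjusted p of 0.538 (limma). Of 11 genes of the prolactin receptor pathway 0 passed and 0 had such a p (median -0.15). Of the 6 measured genes of the FGF23 and klotho axis 0 passed and 1 had such a p (median -0.19). Highest in Ctrl replicate 3 were 3 of the 16 folate genes and 2 of the 11 lysophosphatidic acid genes. So were 3 of the 11 prolactin pathway genes and 2 of the 6 genes of the FGF23 and klotho axis. Over all genes tested the share was 23.6%.

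Relatives of the 10 genes in the same protein families gave another comparison. Of 14 such paralogs that were tested, 5 were highest in Ctrl replicate 3, against 23.6% of all genes tested. Of these 14, 0 stood over 4-fold above the highest other library. In limma 0 passed the test and 2 had an unadjusted p under 0.05 (median -0.035). Slc4a10, the neuronal relative of Slc4a5 that the choroid plexus expresses too, had 55.5 and 41.1 FPKM in LA and 60.5 and 81.0 FPKM in Ctrl. Aqp4, the water channel of astrocytes, had 34.0 and 22.6 FPKM in LA and 29.1 and 26.0 FPKM in Ctrl. Enpp5 had 75.5 and 69.9 FPKM in LA and 81.1 and 89.3 FPKM in Ctrl.

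Markers of the plexus stroma, endothelium, ependyma, glia, blood and neurons were also read against Ctrl replicate 3, and limma called 0 of them. Endothelial markers were highest in it in 10 of 12, against 23.6% of all genes tested. Their summed levels were 54.1 and 55.6 FPKM in LA and 66.3 and 133 FPKM in Ctrl. Of the 12, 0 stood over 4-fold up and 5 had an unadjusted p under 0.05 (median -0.55). Markers of the plexus stroma and its fenestrated capillaries were highest in it in 3 of 6, with sums of 33.7 and 41.5 FPKM in LA and 43.7 and 49.6 FPKM in Ctrl, and 1 had such a p (median -0.23). Within that list Lepr, the leptin receptor, had 0.40 and 0.50 FPKM in LA and 1.13 and 4.79 FPKM in Ctrl (adjusted p = 0.581, limma). Oligodendrocyte and myelin genes were highest in it in 0 of 16, with sums of 3826 and 4632 FPKM in LA and 2456 and 2147 FPKM in Ctrl, and 16 had such a p (median 0.83). Hippocampal neuron markers summed to 1974 and 2415 FPKM in LA and 2217 and 2078 FPKM in Ctrl (median 0.012, 1 of 17 with such a p). Of these sums, Snap25 alone gave 892 and 1117 FPKM in LA and 933 and 884 FPKM in Ctrl. Neuron markers were thus present in all 4 libraries, but the sums do not by themselves identify the region. The medians were 0.23 over 17 ependymal, 0.0099 over 12 astrocyte, 0.47 over 12 microglia, 0.59 over 5 erythrocyte and 0.085 over 8 thalamus and striatum markers, and in that order 3, 2, 5, 1 and 0 of them had such a p. In the same order, 9, 2, 0, 0 and 2 of them were highest in Ctrl replicate 3, against 23.6% of all genes tested. The part of any of these cell types in the result was not tested.

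FPKM summed to 388932 and 441948 in LA and 386945 and 394912 in Ctrl, and their relative depth, read from the FPKM that 1 fragment adds to short genes, ran between 92.7% and 100%. Genes listed at 0 numbered 1361 and 1440 in LA and 975 and 919 in Ctrl, and so were more in both LA libraries. Read totals were not used here, so the counting error of values under 1 FPKM, such as those of Slc4a5 and Aqp1 outside Ctrl replicate 3, is unknown.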

How the data were processed

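RNA of the hippocampus from 2 LA and 2 Ctrl libraries was compared. The authors deposited the expression of each library as FPKM. TopHat2, Cufflinks and GRCm38 are named in the notes on processing, without versions or an annotation. The paper given for the series describes cultured human cells. In 11 cells of the table a date stood for the gene symbol, and the symbol was looked up by gene number. RefSeq held 18293 of the 19230 identifiers.

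Genes averaging 1 FPKM or more over the 4 libraries were tested (13518). No further scaling was applied, a pseudocount of 1 was added, and the groups' log2 values entered limma 3.58.1 (R 4.3.3, eBayes with trend, two-sided). The Benjamini-Hochberg adjustment of p was made over all genes tested, with a threshold of 0.05. Each gene had 2 residual degrees of freedom and the prior 5.37. Fold changes on this scale understate the change of low genes. The fit was tested on simulated data.

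The members and lists were chosen with earlier results of these data known. The genes named were all 10 members, the 8 other choroid plexus genes with the largest step in Ctrl replicate 3, up to 3 of smallest p in each other list, up to 5 paralogs of highest mean, and the 10 other genes most alike by that step. Slc13a4, Igf2, Trpv4, Anapc15, 2410124H12Rik and the genes of the closing section were added once their values had been seen. The alternatives were pseudocounts of 0.1 and 0.5, no filter, a filter at 5 FPKM, scaling by median ratios, quantile normalization, a common FPKM sum without the members, limma without trend or with robust estimation, and each library left out in turn.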

Additional observations from a re-analysis of the deposited data

How the results depend on the processing

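The 10 genes gave 127 log2 fold changes under 13 alternatives. Direction and call were as with all 4 libraries in 109, 10 kept their direction and newly passed, all without Ctrl replicate 2, and 8 changed sign, all without Ctrl replicate 3. Of these 8, Ttr also passed. Over the libraries left out, the values of those 8 ran from -6.93 to 2.20 for Ttr, from -2.63 to 0.98 for Otx2, from -3.57 to 0.95 for Clic6, from -3.84 to 0.77 for Folr1, from -4.13 to 0.53 for Enpp2, from -2.73 to 0.47 for Sostdc1, from -3.07 to 0.16 for Prlr and from -4.22 to 0.082 for Slc4a5. Likewise the number of the 10 genes called ran between 0 and 10, their median log2 fold change between -3.67 and 0.50, and the number of all genes called between 2 and 227. It was 227 without Ctrl replicate 2, 78 without Ctrl replicate 3, 177 without LA replicate 1 and 2 without LA replicate 2. The number over all genes was 19 with all 4 libraries, 40 with robust estimation, 37 with a common FPKM sum without the 10 genes, and 0 with no filter, where 1333 of 19080 genes had an unadjusted p under 0.05 (limma). The Ctrl replicates 3 and 2 differed by a median of 4.02 on the log2 scale over the 10 genes, by 5.25 with a pseudocount of 0.1, by 4.51 with 0.5, and by 4.52 with a filter at 5 FPKM, which left 7 of them. The cause was not tested. No paired analysis was possible because the groups share only the replicate number 2. Without read totals, little can be said of genes under 1 FPKM.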

Other observations

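Of the 44 genes over 4-fold above the highest other library in Ctrl replicate 3, 16 were on neither choroid plexus list. Whether these 16 are also expressed in the choroid plexus was not tested. The genes named here were chosen after their values were seen. Trpm3, a cation channel, had 13.4 and 7.13 FPKM in LA and 10.9 and 63.7 FPKM in Ctrl. Lbp, the lipopolysaccharide-binding protein, had 4.5 and 5.4 FPKM in LA and 6.83 and 31.3 FPKM in Ctrl. A2m, a protease inhibitor, had 2.01 and 1.5 FPKM in LA and 1.68 and 16.5 FPKM in Ctrl. Slc2a12, a glucose transporter, had 1.13 and 1.16 FPKM in LA and 1.37 and 12.1 FPKM in Ctrl, and Prr32 had 0.53 and 1.36 FPKM in LA and 0.22 and 21.8 FPKM in Ctrl. In each the second Ctrl value is replicate 3.

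Of the 5 genes that stood out alike in LA replicate 2, Lrrc17 had the highest level, with 423 and 1714 FPKM in LA and 359 and 332 FPKM in Ctrl, and Wdr66 had 2.05 and 21.8 FPKM in LA and 2.38 and 1.64 FPKM in Ctrl. None of the 10 choroid plexus genes had its highest value in either LA library or in Ctrl replicate 2.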
